A study of Mus musculus with 6 samples.

Results

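The MHC class II antigen presentation genes were examined in MSR1 KO and MSR1 WT macrophages. They were 10 of the 52550 genes in the deposited count table, chosen by symbol: the chain genes H2-Aa, H2-Ab1 and H2-Eb1, the invariant chain gene Cd74, the transactivator gene Ciita, the H2-DM genes H2-DMa, H2-DMb1 and H2-DMb2, and the H2-O genes H2-Oa and H2-Ob. The 3 MSR1 KO and 3 MSR1 WT libraries were RNA-seq libraries of bone marrow-derived macrophages from C57BL/6 mice. Bone marrow cells of both genotypes had been grown for 7 days in 25 ng/ml M-CSF, the growth factor that drives macrophage formation, and had then shared a transwell system with bone marrow stem cells (BMSCs) for 48 h, so no group without BMSCs was compared. Msr1 encodes a scavenger receptor of macrophages. MSR1 was knocked out in the whole mouse, the WT mice had the same genetic background, and ages and sexes were not given in the sources used here. The study names 3 biological replicates of each genotype, but the labels do not say whether each came from its own mouse or culture. The comparison addresses what loss of MSR1 changes in macrophages kept with BMSCs, and its p-values measure the spread between these samples, which may in part be technical.

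MHC class II molecules are pairs of an α and a β chain that present peptides from endosomes to CD4+ T cells. The invariant chain, encoded by Cd74, fills the groove of a new pair and brings it to the endosome, where H2-DM exchanges the last fragment of the invariant chain for a peptide and H2-O holds H2-DM back. In macrophages the transactivator CIITA, which interferon-γ induces, switches on the class II genes together with the RFX and NF-Y factors bound at their promoters.

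Total counts per library lay between 36143518 and 47417448, and 16402 genes had enough counts to be tested, all 10 class II genes among them. Levels are given as CPM, counts scaled to a common library size after TMM normalization. The targeted gene Msr1 lay at 43.0 to 59.0 CPM in the MSR1 KO libraries and at 183 to 223 CPM in the MSR1 WT libraries (log2 fold change -2.02, adjusted p = 0.00124 by edgeR). The macrophage markers Csf1r, the M-CSF receptor gene, and Adgre1, which encodes F4/80, had means of 4539 and 2361 CPM in MSR1 KO and 4413 and 2255 CPM in MSR1 WT macrophages. MSR1 WT replicate 3 stood apart from the other MSR1 WT libraries in its chain genes and Cd74, but was close to them in H2-DMa and H2-DMb1. The class II genes together took 0.0979% of its counts, against 0.0495% and 0.0522% in MSR1 WT replicates 1 and 2 and 0.0677% to 0.109% in the MSR1 KO libraries. The log2 fold changes of the class II genes and the main counts of them are therefore given with and without this library, as are some ratios.

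With all 6 libraries, none of the class II genes passed the edgeR test between genotypes, whereas DESeq2 called H2-DMa. H2-DMa, H2-DMb1 and H2-Oa were higher in every MSR1 KO library than in every MSR1 WT library. At an adjusted p under 0.05, the edgeR quasi-likelihood test (p-values adjusted over all tested genes by Benjamini-Hochberg) called 0 of 10, where 4.91% of all tested genes were called. At an unadjusted p under 0.05 there were 2 of 10, H2-DMa and H2-DMb1, against 18.9% of all tested genes. DESeq2 called 1 of 10, H2-DMa, against 9.57% of all genes it tested. By the definition of a differentially expressed gene in the study (changed more than 1.5-fold, unadjusted p under 0.05), 1 of 10 was higher in MSR1 KO macrophages, again H2-DMa, against 3.59% of all tested genes. Every MSR1 KO library lay above every MSR1 WT library in 3 of 10, against 12.1% of all tested genes. Of the 10 log2 fold changes 9 were above 0, and their median was 0.41, whereas 49.56% of all tested genes were above 0 and their median was -0.002. In bulk RNA such as this, a difference in the number of cells that express a gene and one in the RNA per cell cannot be told apart.

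**Figure D1:**
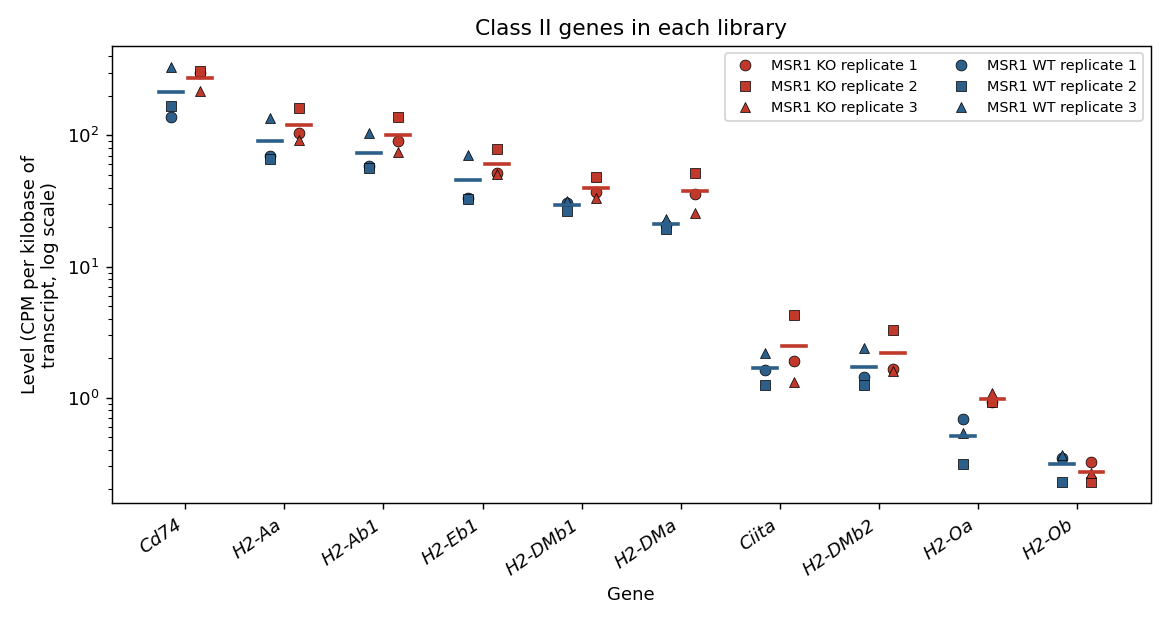
Level of each class II gene in each library as CPM per kilobase of transcript (log scale), with 3 MSR1 KO libraries in red, 3 MSR1 WT libraries in blue, symbols for the replicate number and bars for the group means. Cd74 and the chain genes are the most abundant, and the triangle of MSR1 WT replicate 3 sits well above the other MSR1 WT libraries for Cd74, H2-Aa, H2-Ab1 and H2-Eb1.

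Levels were compared between genes only per kilobase of the principal transcript. Cd74 was the most abundant, at 276 CPM per kilobase in MSR1 KO and 213 in MSR1 WT macrophages (means, n = 3 each). H2-Aa followed with 119 and 90.6, H2-Ab1 with 101 and 73.3, and H2-Eb1 with 60.7 and 45.9. H2-DMb1 had 39.4 and 29.7 and H2-DMa 37.6 and 21.0. H2-DMa and H2-DMb1 overlapped in MSR1 KO macrophages, whereas H2-DMa was below H2-DMb1 in every comparison of MSR1 WT libraries. Ciita (2.50 and 1.69), H2-DMb2 (2.18 and 1.70), H2-Oa (0.978 and 0.512) and H2-Ob (0.272 and 0.312) lay far lower. In both genotypes the libraries of H2-Aa overlapped with those of H2-Ab1, those of H2-Ab1 with those of H2-Eb1, and those of Ciita with those of H2-DMb2, which left their order undecided. H2-Oa and H2-Ob overlapped in MSR1 WT macrophages only.

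H2-Aa encodes the α chain and H2-Ab1 the β chain of the I-A molecule, the class II molecule of C57BL/6 mice. H2-Aa (ENSMUSG00000036594.14, chromosome 17, 34282744 to 34287827) was at 117.5, 182 and 104.5 CPM in MSR1 KO replicates 1 to 3 and at 78.3, 75.2 and 153 CPM in MSR1 WT replicates 1 to 3. H2-Ab1 (ENSMUSG00000073421.5, chromosome 17, 34263209 to 34269418) had 111, 166 and 91.0 CPM against 70.9, 68.3 and 127 CPM. For both genes MSR1 KO replicate 2 was the highest of all libraries and MSR1 WT replicate 3 came next, so the groups overlapped. H2-Aa had a difference of 0.40 on the log2 scale (95% interval -0.29 to 1.09, adjusted p = 0.545) and H2-Ab1 one of 0.46 (-0.19 to 1.12, adjusted p = 0.438) by edgeR.

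H2-Eb1 encodes the β chain of the I-E molecule, whose α chain gene is defective in C57BL/6 mice. H2-Eb1 (ENSMUSG00000060586.10, chromosome 17, 34305877 to 34316199) was nevertheless transcribed, with 86.6, 132 and 85.2 CPM in MSR1 KO replicates 1 to 3 and 55.6, 55.0 and 119 CPM in MSR1 WT replicates 1 to 3. The order of the libraries was the one seen for H2-Aa and H2-Ab1, and the log2 fold change was 0.40 (95% interval -0.31 to 1.12, adjusted p = 0.555 by edgeR). The α chain pseudogene H2-Ea-ps had 0 counts in all 6 libraries, which allows up to 3 counts in each, and the β chain gene H2-Eb2 had 4 counts in MSR1 KO replicate 1, 4 in MSR1 WT replicate 2 and 0 in the others.

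The chain genes are known to share a promoter design in which an X box, bound by RFX, precedes a Y box, bound by NF-Y. RefSeq promoters (GRCm38.p6, 250 bases before to 50 after the start of each gene) were found for 7 of 10 class II genes. H2-Ab1, Cd74 and Ciita were not among them. The stretch from 130 to 31 bases before the start is shown, 5′ to 3′ on the strand of the gene, for the 3 genes in which it both lies outside the gene in the deposited table and holds the Y box letters, with those letters (GATTGG) and, in H2-Eb1, the X box core (AGNNACNGA) in capitals. H2-Aa is at chr17:34287854-34287953 on the minus strand, H2-Eb1 at chr17:34305737-34305836 on the plus strand and H2-Ob at chr17:34238775-34238874 on the plus strand.
H2-Aa: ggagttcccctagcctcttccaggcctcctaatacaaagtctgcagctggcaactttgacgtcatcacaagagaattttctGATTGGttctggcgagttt
H2-Eb1: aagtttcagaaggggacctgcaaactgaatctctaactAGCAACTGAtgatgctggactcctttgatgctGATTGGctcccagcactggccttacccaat
H2-Ob: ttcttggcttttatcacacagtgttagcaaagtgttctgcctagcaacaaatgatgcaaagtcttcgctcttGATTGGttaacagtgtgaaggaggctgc
The Y box letters started 49 bases before the start of H2-Aa, 60 before that of H2-Eb1 and 58 before that of H2-Ob. They also stood in H2-Oa, H2-DMb1 and H2-DMb2, so 6 of the 7 genes had them on the sense strand from 100 to 40 bases before the start, against 3.324% of 32851 promoters. H2-DMa did not have them there, but the sequence next to its start in the deposited table was not scanned. Its RefSeq starts, at 34122832 and 34125518, lay far upstream of that start, at 34135182. Neither stretch held the Y box letters, and they stood at position -199 from the RefSeq start at 34125518. Whether H2-DMa has a Y box next to the gene was thus not tested. On either strand and anywhere in the window, 16.11% of all promoters held the Y box letters and 17.73% held the X box core. An X box core followed by a Y box with 15 to 25 bases between them was found in 15 of 32851 promoters, or 0.04566%, among them those of H2-Eb1 (23 bases between), H2-DMb1 (24 bases between) and H2-Eb2. These matches describe letters and do not show that a factor was bound. H2-Eb1 and H2-DMb1, which share the pair, had log2 fold changes of 0.40 and 0.41, and only H2-DMb1 had groups that did not overlap.

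Cd74 (ENSMUSG00000024610.14, chromosome 18, 60803848 to 60812646) encodes the invariant chain. It was at 422, 437 and 309 CPM in MSR1 KO replicates 1 to 3 and at 196.5, 235 and 471 CPM in MSR1 WT replicates 1 to 3. MSR1 WT replicate 3 was the highest of all libraries and the other MSR1 WT libraries were the lowest. By log2 fold change Cd74 was at 0.37 (95% interval -0.32 to 1.06, adjusted p = 0.575 by edgeR).

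Ciita (ENSMUSG00000022504.9, chromosome 16, 10488178 to 10527564) encodes the transactivator of the class II genes. Its level was 11.4, 25.65 and 7.96 CPM in MSR1 KO replicates 1 to 3 and 9.80, 7.52 and 13.05 CPM in MSR1 WT replicates 1 to 3. MSR1 KO replicate 2 stood well above the rest, and the other libraries of both genotypes overlapped. Its fitted log2 difference was 0.57 with a standard error of 0.41 (adjusted p = 0.519 by edgeR) and became -0.067 without MSR1 KO replicate 2. Of the exon bases of Ciita, 3.96% are shared with Dexi on the other strand.

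H2-DMa and H2-DMb1 encode the α and β chains of H2-DM, the peptide exchange catalyst. H2-DMa (ENSMUSG00000037649.9, chromosome 17, 34135182 to 34139101) was at 59.3, 85.8 and 42.1 CPM in MSR1 KO replicates 1 to 3 and at 34.6, 31.8 and 38.1 CPM in MSR1 WT replicates 1 to 3. H2-DMb1 (ENSMUSG00000079547.3, chromosome 17, 34153072 to 34160230) had 52.0, 67.7 and 46.4 CPM against 43.15, 37.4 and 44.6 CPM. Every MSR1 KO library was above every MSR1 WT library for both genes, by a small margin in MSR1 KO replicate 3, and MSR1 WT replicate 3 was close to the other MSR1 WT libraries.

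The log2 fold change of H2-DMa was 0.84 (95% interval 0.32 to 1.36), a 1.79-fold higher level with an unadjusted p of 0.00569 and an adjusted p of 0.0797 by edgeR. DESeq2 gave 0.85 with an adjusted p of 0.00198. The edgeR value was 1.06 (adjusted p = 0.0314) without MSR1 KO replicate 3 and 0.54 (adjusted p = 0.13) without MSR1 KO replicate 2, where H2-DMa no longer met the study's definition. For H2-DMb1 the log2 fold change was 0.41 (95% interval 0.08 to 0.74, unadjusted p = 0.021, adjusted p = 0.165).

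H2-DMb2 is a second H2-DM β chain gene, next to H2-DMb1 on chromosome 17 (ENSMUSG00000037548.14, 34143307 to 34151553). It was at 2.34, 4.70 and 2.26 CPM in MSR1 KO replicates 1 to 3 and at 2.06, 1.79 and 3.41 CPM in MSR1 WT replicates 1 to 3, with MSR1 KO replicate 2 highest and MSR1 WT replicate 3 next, as for the chain genes. Its log2 fold change of 0.36 (95% interval -0.49 to 1.21, adjusted p = 0.675 by edgeR) became -0.074 without MSR1 KO replicate 2. The H2-DMb1 and H2-DMb2 transcripts were 95.33% identical over 1093 aligned bases, so some of their reads could have been split between them. Of the 100-base stretches of the H2-DMb2 transcript, 13.51% also stood in H2-DMb1, and 13.72% the other way round. With both genes added together the log2 fold change was 0.41 (adjusted p = 0.19 by edgeR).

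H2-Oa and H2-Ob encode the α and β chains of H2-O, the inhibitor of H2-DM, which is known mainly from B cells and the thymus. H2-Oa (ENSMUSG00000024334.8, chromosome 17, 34092340 to 34095234) was at 36, 40 and 55 counts in MSR1 KO replicates 1 to 3 and at 31, 16 and 24 counts in MSR1 WT replicates 1 to 3. H2-Ob (ENSMUSG00000041538.15, chromosome 17, 34238903 to 34245907) had 31, 24 and 33 counts against 38, 29 and 40 counts. In CPM the groups of H2-Oa did not overlap and those of H2-Ob did. The log2 fold change was 0.94 for H2-Oa (95% interval -0.01 to 1.88, adjusted p = 0.269) and -0.20 for H2-Ob (-1.08 to 0.69, adjusted p = 0.843) by edgeR. Of the exon bases of H2-Oa, 22.81% are shared with BC051537 on the other strand, which had at most 4 counts in a library, and whether strand was used in counting was not stated.

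**Figure D2:**
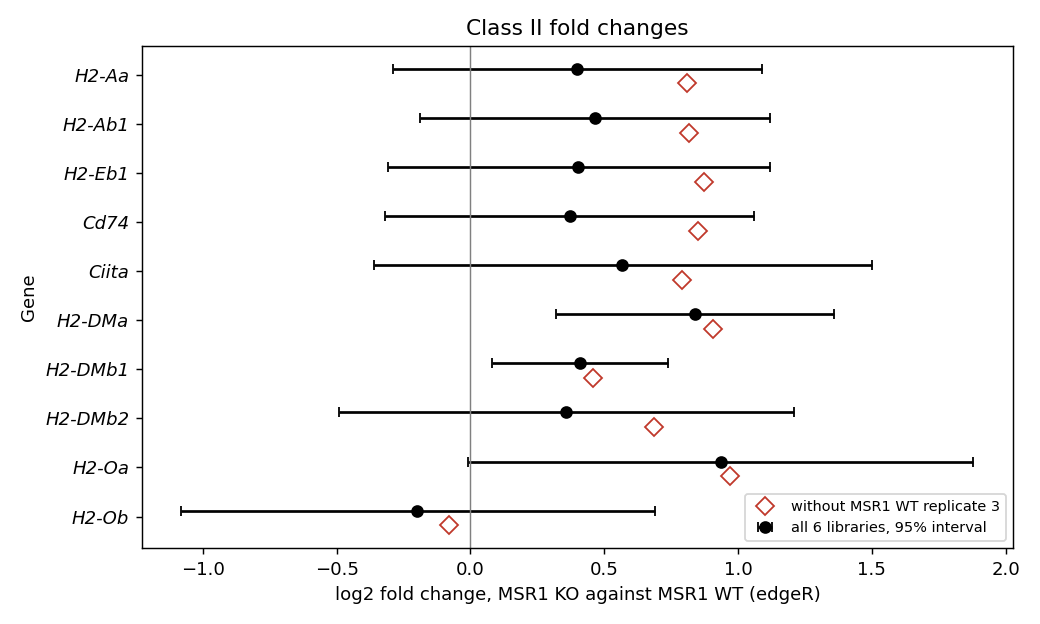
log2 fold change of each class II gene in MSR1 KO against MSR1 WT macrophages by edgeR, with 95% intervals from all 6 libraries (black) and the value without MSR1 WT replicate 3 (red diamonds). The intervals of H2-DMa and H2-DMb1 lie above 0, and without MSR1 WT replicate 3 the values of H2-Aa, H2-Ab1, H2-Eb1 and Cd74 move from between 0.37 and 0.46 to between 0.81 and 0.87.

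The values of the chain genes and Cd74 moved with single libraries of both genotypes. The level of MSR1 WT replicate 3 was 1.99 times the mean of MSR1 WT replicates 1 and 2 for H2-Aa, 1.83 times for H2-Ab1, 2.16 times for H2-Eb1 and 2.18 times for Cd74, but 1.15 times for H2-DMa and 1.11 times for H2-DMb1. The highest MSR1 WT library was at 2.04 times the lowest for H2-Aa and 2.40 times for Cd74, whereas this ratio had a median of 1.24 over all tested genes and 2.44 at their 90th percentile. Without this library the log2 fold change was 0.81 for H2-Aa (adjusted p = 0.0996), 0.82 for H2-Ab1 (adjusted p = 0.108), 0.87 for H2-Eb1 (adjusted p = 0.0544), 0.85 for Cd74 (adjusted p = 0.033) and 0.91 for H2-DMa (adjusted p = 0.121) by edgeR. Without MSR1 KO replicate 2 it was instead 0.12 for H2-Aa, 0.18 for H2-Ab1, 0.17 for H2-Eb1 and 0.28 for Cd74. Without MSR1 WT replicate 1 the values were 0.24, 0.33, 0.22 and 0.14 for the same genes in this order, and without MSR1 WT replicate 2 they were 0.22, 0.31, 0.21 and 0.22.

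Without MSR1 WT replicate 3, Cd74 was the 1 class II gene of 10 at an adjusted p under 0.05, against 4.63% of all genes tested without it. Because this library was singled out for its high class II levels, higher class II values without it follow in part from that choice, and the shares of all genes, which were not chosen so, are no fair comparison for the counts without it. The class II genes met the study's definition in 5 of 10, against 4.48%, and every MSR1 KO library lay above both remaining MSR1 WT libraries in 8 of 10, against 17.8%. Those in the 5 were H2-Aa, H2-Ab1, H2-Eb1, Cd74 and H2-DMa, and those outside the 8 were Ciita and H2-Ob.

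Among the MSR1 KO libraries, replicate 2 was the highest for 8 of 10 class II genes, H2-Oa and H2-Ob being the exceptions. Its level was 2.65 times the mean of MSR1 KO replicates 1 and 3 for Ciita, 2.04 times for H2-DMb2 and 1.69 times for H2-DMa, and 1.19 times for Cd74. Without it, 0 of 10 met the study's definition, where 540 of all 16886 genes tested did so as higher in MSR1 KO macrophages. This library was picked out for its high class II levels, so lower class II values without it follow in part from that choice.

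**Figure D3:**
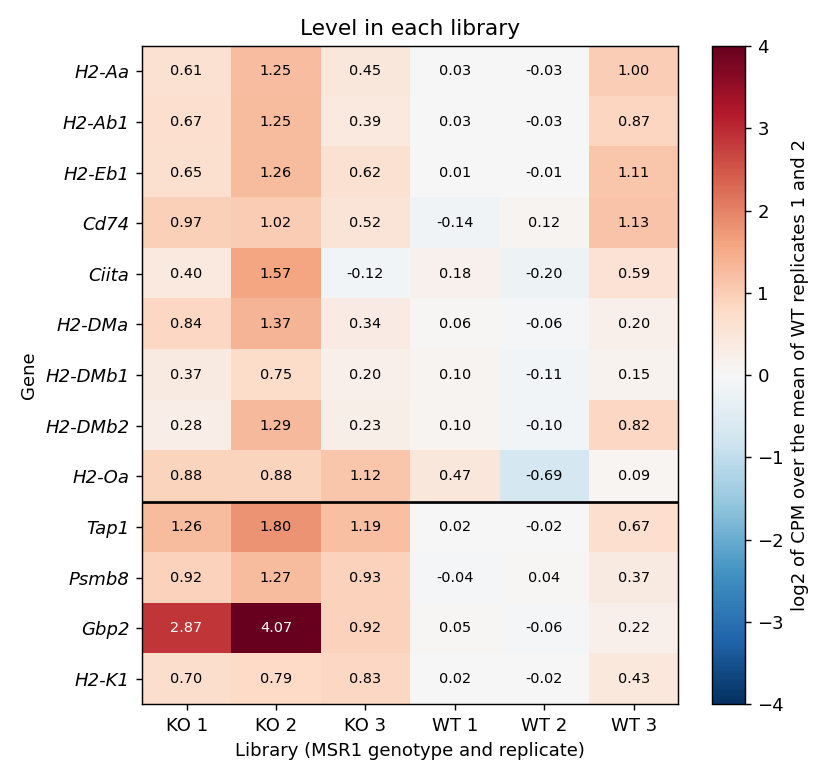
log2 of the CPM in each library over the mean of MSR1 WT replicates 1 and 2, for the class II genes except H2-Ob (above the line) and interferon-regulated and class I genes (below it), with the MSR1 genotype and replicate number under each column. MSR1 WT replicate 3 is at 1.00 for H2-Aa and 1.13 for Cd74 but at 0.22 for Gbp2, whereas MSR1 KO replicate 2 is high for nearly all genes shown and reaches 4.07 for Gbp2.

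The proportions between class II genes were compared within each library, using the level per kilobase, by exact two-sided permutation tests that could not go below p = 0.1 with 3 libraries a group. H2-Aa was at 1.18 times H2-Ab1 in MSR1 KO and 1.22 times in MSR1 WT macrophages (p = 0.5, exact test). Cd74 was at 2.995 times the mean of the chain genes in MSR1 KO and 2.989 times in MSR1 WT macrophages (p = 1, exact test). H2-DM was at 62.0 times H2-O in MSR1 KO and 65.8 times in MSR1 WT macrophages (p = 0.8, exact test), and the ratio of Ciita to the chain genes differed by -0.036 on the log2 scale (p = 0.9, exact test).

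More ratios were chosen after the data had been seen. H2-DMa was at 0.879 times the H2-DMb genes in MSR1 KO macrophages and at 0.67 times in MSR1 WT macrophages. Every MSR1 KO library was above every MSR1 WT library in this ratio, with a difference of 0.39 on the log2 scale (p = 0.1, exact test). The ratio of H2-DMa to the chain genes differed by 0.32 with overlapping groups (p = 0.4, exact test). Without MSR1 WT replicate 3 it differed by 0.064, and with any other library left out by 0.26 to 0.47. After Benjamini-Hochberg adjustment of the exact p-values over all 8 ratios, no ratio was below p = 0.4.

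**Figure D4:**
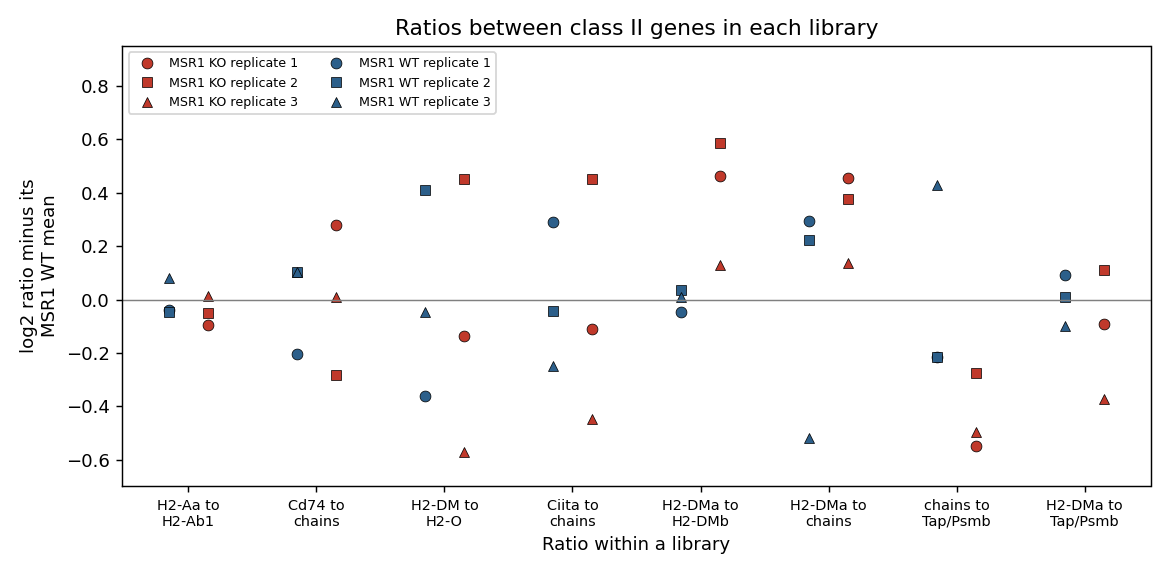
log2 ratio between genes within each library, from levels per kilobase, minus the mean of the 3 MSR1 WT libraries, with MSR1 KO in red and MSR1 WT in blue; chains stands for H2-Aa, H2-Ab1 and H2-Eb1, and Tap/Psmb for Tap1, Tap2, Psmb8 and Psmb9. The groups separate for H2-DMa to H2-DMb, where MSR1 KO is higher, and for chains to Tap/Psmb, where MSR1 KO is lower and the Tap and Psmb genes had been chosen as higher in MSR1 KO.

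The class II region of chromosome 17 also holds class I genes. From H2-Oa to H2-Eb2 (34092340 to 34340229) 15 genes were tested, 8 of them class II genes of the set described here. This region was chosen after the data had been seen. Of its 7 other genes, 4 rose in MSR1 KO macrophages at an adjusted p under 0.05 by edgeR. These were Tap1 (log2 fold change 1.18, adjusted p = 0.0267) and Tap2 (0.67, adjusted p = 0.0267), which encode the peptide transporter of the class I pathway, and Psmb8 (0.92, adjusted p = 0.0163) and Psmb9 (0.87, adjusted p = 0.0493), which encode subunits of the immunoproteasome. All 4 had MSR1 KO libraries above every MSR1 WT library. Tap1 was at 233, 338.5 and 221 CPM in MSR1 KO replicates 1 to 3 and 98.35, 96.0 and 154.5 CPM in MSR1 WT replicates 1 to 3. Ratios of class II genes to these 4 genes are given as a description, since the choice of genes that were higher in MSR1 KO macrophages lowers such ratios there. The ratio differed by -0.44 on the log2 scale for the chain genes and by -0.12 for H2-DMa. With a library left out the value for the chain genes lay between -0.55 and -0.22, the latter without MSR1 WT replicate 3. That for H2-DMa lay between -0.23 and 0.008, the latter without MSR1 KO replicate 3.

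**Figure D5:**
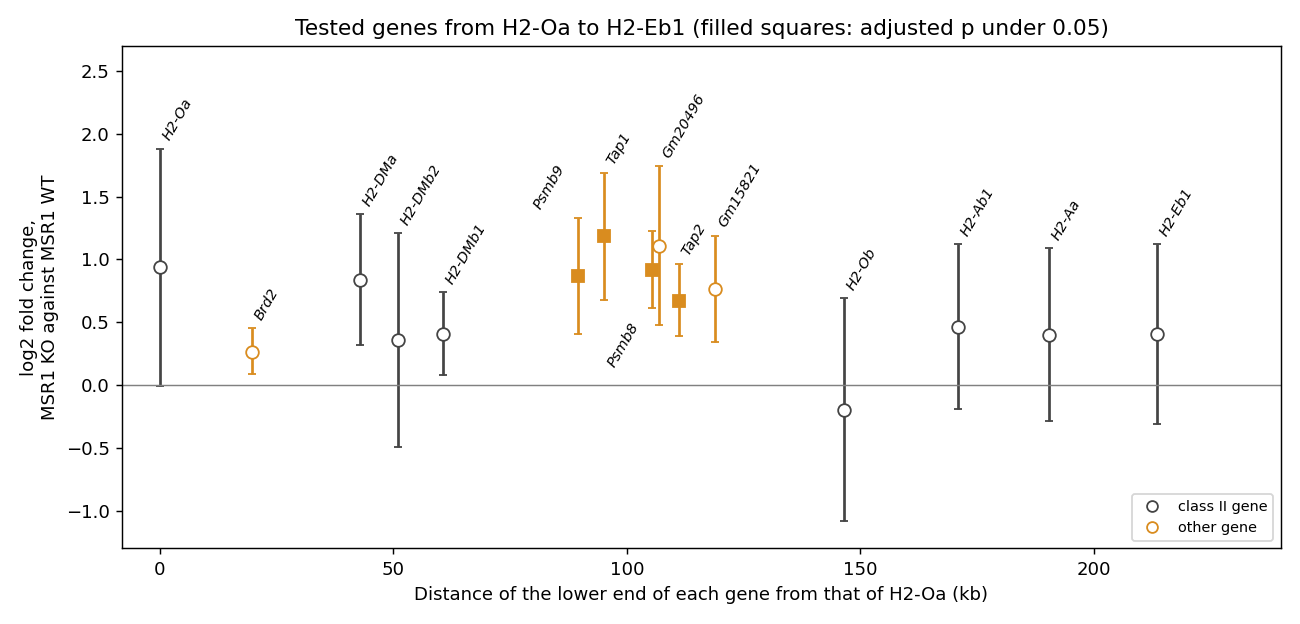
log2 fold change with 95% interval for the 15 tested genes from H2-Oa to H2-Eb1 in their order along chromosome 17, placed by distance in kilobases, with class II genes in grey and other genes in orange; filled squares mark an adjusted p under 0.05. The 4 filled squares are Psmb9, Tap1, Psmb8 and Tap2, which lie between the H2-DM genes and the chain genes.

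Of the factors that bind class II promoters, 0 of 7 passed the edgeR test, 1 had an unadjusted p under 0.05 and 1 was called by DESeq2, in both cases Rfx5, and the median log2 fold change was -0.011. The value of Rfx5, a DNA-binding subunit of RFX, was 0.76 (adjusted p = 0.13), with 24.6, 30.2 and 17.8 CPM in MSR1 KO replicates 1 to 3 and 19.0, 12.65 and 11.3 CPM in MSR1 WT replicates 1 to 3. Its groups overlapped in a single pair of libraries, MSR1 KO replicate 3 and MSR1 WT replicate 1. The NF-Y subunits had log2 fold changes of -0.30 for Nfya, 0.13 for Nfyb and 0.19 for Nfyc.

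Of the genes that induce Ciita or hold it back, 1 of 11 tested rose by edgeR, none fell, and the median log2 fold change was 0.17. At an unadjusted p under 0.05 there were 6 of 11, against 18.9% of all tested genes. DESeq2 called 4 as higher, Irf1, Jak2, Usf1 and Socs1, where it called 9.57% of all genes in either direction. Socs1, an inhibitor of interferon-γ signalling, rose by 1.36 on the log2 scale (adjusted p = 0.0449), with 5.26, 5.30 and 4.41 CPM in MSR1 KO replicates 1 to 3 and 2.13, 1.12 and 2.59 CPM in MSR1 WT replicates 1 to 3. The value was 1.02 for Irf1 (adjusted p = 0.073), a factor that binds the interferon-responsive Ciita promoter, 0.33 for the kinase gene Jak2 (adjusted p = 0.0893) and 0.30 for Spi1 (adjusted p = 0.126), which encodes the myeloid factor PU.1. Ifngr1, a receptor chain gene and the most abundant per kilobase, had 0.17 (adjusted p = 0.379). Ifng, named after its values were seen, had 0 counts in 5 of 6 libraries. The call of Socs1 was lost with any library left out except MSR1 WT replicate 3, and Irf1 was called without MSR1 KO replicate 3.

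The known interferon-γ targets rose in 5 of 7 tested genes by edgeR, against 369 of all 16402 tested genes. DESeq2 called 6 of 7, Cd274 being added. The median log2 fold change of the targets was 1.61. Among them Gbp4 rose by 3.13 (adjusted p = 0.0301), Gbp2 by 3.04 (adjusted p = 0.0386) and Iigp1 by 2.37 (adjusted p = 0.027), all GTPases of cell-autonomous defence. The chemokine gene Cxcl9 had 1.61 (adjusted p = 0.416). Ido1, also listed, had 0 counts in all 6 libraries and was not tested. The list was chosen with earlier results known, and which signal raised its genes was not tested. Gbp2 was at 260, 598 and 67.6 CPM in MSR1 KO replicates 1 to 3 and 37.0, 34.3 and 41.4 CPM in MSR1 WT replicates 1 to 3. MSR1 KO replicate 2 was thus the highest library for Gbp2 as for the chain genes, but MSR1 WT replicate 3, high for the chain genes, was close to the other MSR1 WT libraries for Gbp2. The number called was 0 without MSR1 KO replicate 1, MSR1 KO replicate 2, MSR1 WT replicate 1 or MSR1 WT replicate 2, and the median stayed between 1.35 and 1.64 in these.

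Of 9 genes of the class I pathway, 7 rose and none fell by edgeR, with a median log2 fold change of 0.70, and DESeq2 called all 9 as higher. The largest value was that of Nlrc5, the class I counterpart of Ciita, at 1.36 (adjusted p = 0.0389). Nlrc5 was at 204.5, 287 and 115 CPM in MSR1 KO replicates 1 to 3 and 76.2, 67.8 and 93.15 CPM in MSR1 WT replicates 1 to 3, without overlap. B2m, the light chain gene, was the most abundant and had 0.37 (adjusted p = 0.0739). With a library left out the number called was 0 without MSR1 WT replicate 1 or 2, 1, 3 and 6 when MSR1 KO replicate 1, 2 or 3 was dropped, and 4 when MSR1 WT replicate 3 was dropped. In each case all 9 genes had an unadjusted p under 0.05, and the median stayed between 0.61 and 0.82.

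Of 12 genes of endosomal antigen processing, 1 rose and 2 fell by edgeR, with a median log2 fold change of 0.07. By DESeq2 3 rose and 2 fell, with Ctsh and Ctss added to those that rose. Ctsc, a dipeptidyl peptidase gene, rose by 0.54 (adjusted p = 0.0353). Ctsl, which encodes cathepsin L, and Ctsk, which encodes cathepsin K, fell by 0.52 (adjusted p = 0.0306) and 0.85 (adjusted p = 0.0271) on the log2 scale. Ctsd, which encodes cathepsin D and was the most abundant per kilobase, had -0.18 (adjusted p = 0.355), and Ctse had 0.48 (adjusted p = 0.164). Ctss, named after its values were seen because cathepsin S trims the invariant chain, had 0.37 (adjusted p = 0.129). None of these genes was called without MSR1 KO replicate 1 or 2 or MSR1 WT replicate 1 or 2, and Ctsc and Ctss were called without MSR1 WT replicate 3.

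Of 4 tested genes of class II turnover, 1 rose by edgeR and 2 by DESeq2, Cd83 and Sppl2a. Cd83, whose protein keeps class II molecules at the surface, rose by 0.55 (adjusted p = 0.0301). March1, which encodes the ligase that marks class II molecules for degradation, had 0.18 (adjusted p = 0.347), and the related March8 had 0.004 (adjusted p = 0.987). Sppl2a, which encodes the protease that clears the last membrane stub of the invariant chain, had 0.39 (adjusted p = 0.096). The call of Cd83 was lost with any library left out except MSR1 WT replicate 3.

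Class II genes are also expressed by B cells and dendritic cells, so their markers were examined. Of 9 B cell markers, 4 were tested and 1 fell, Ebf1 (-1.07, adjusted p = 0.0182). Their summed level was 266 to 314 CPM in the MSR1 KO and 188 to 236.5 CPM in the MSR1 WT libraries and came mostly from Ighm, whose log2 fold change was 0.64 (adjusted p = 0.0667). Without Ighm the sums were 77.7 to 112 CPM and 83.7 to 87.5 CPM. Most of this came from Cd22, at 53.3 to 84.6 CPM over all libraries, and Cd79b, at 15.1 to 22.4 CPM. Their log2 fold changes were 0.19 (adjusted p = 0.582) and 0.27 (adjusted p = 0.327) by edgeR. Blk was at 0 in all libraries, and Cd79a, Ms4a1, Pax5 and Fcer2a were at most 0.409 CPM in any library. The call of Ebf1 was lost without MSR1 KO replicate 1 or MSR1 WT replicate 1, and Ighm was called without MSR1 WT replicate 3.

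Of 11 tested dendritic cell markers, Dpp4 rose (1.63, adjusted p = 0.0238) and Itgax, which encodes CD11c, fell (-2.50, adjusted p = 0.00446). Their summed level was 46.3 to 58.6 CPM in the MSR1 KO and 97.4 to 167 CPM in the MSR1 WT libraries. The difference came from Itgax, and without it the sums were 30.9 to 33.4 CPM in the MSR1 KO and 20.1 to 23.0 CPM in the MSR1 WT libraries, higher in every MSR1 KO library. MSR1 WT replicate 3 had the highest sum with Itgax, and its Itgax level was 144 CPM against 112.5 and 77.4 CPM in MSR1 WT replicates 1 and 2. Flt3, Zbtb46, Xcr1 and Clec9a, which define conventional dendritic cells, were at most 1.965 CPM in any library. Xcr1 (2.04, adjusted p = 0.0596) and Ccr7 (2.49, adjusted p = 0.181), a chemokine receptor gene of migrating dendritic cells, met the study's definition, and DESeq2 called Xcr1, whereas Clec9a had 1.80 (adjusted p = 0.362). Itgax was called with any library left out, whereas Dpp4 was called only without MSR1 WT replicate 2 or 3.

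Of the macrophage markers 1 of 9 rose, Fcgr1 (1.14, adjusted p = 0.0182), and none fell. The summed level of the T and NK cell markers was 111 to 160 CPM in the MSR1 KO and 93.6 to 151 CPM in the MSR1 WT libraries, with 1 of 5 tested genes risen, Klrb1c (1.39, adjusted p = 0.028). Cd4, which made up 88.2% of the mean sum, had -0.02 (adjusted p = 0.96), and without it the sums were 18.8 to 24.0 CPM in the MSR1 KO and 5.21 to 16.7 CPM in the MSR1 WT libraries, of which MSR1 WT replicate 3 had the highest. Nkg7, Trac and Ncr1 had 1.25, 1.11 and 0.71 (adjusted p of 0.269, 0.213 and 0.392), and the median of the tested genes was 1.11. The T cell markers Cd3e, Cd3d and Cd8a had too few counts to be tested and were at most 0.508 CPM in any library. Of the neutrophil markers 0 of 9 passed the edgeR test, 2 had an unadjusted p under 0.05 and 1 was called by DESeq2. All 9 had log2 fold changes above 0, with a median of 0.41. They summed to 656 to 1067 CPM in the MSR1 KO and 427 to 813 CPM in the MSR1 WT libraries, and MSR1 WT replicate 3 had the lowest sum. Of 9 stromal cell markers 2 fell, Pdgfra (-1.19, adjusted p = 0.0142) and Cxcl12 (-1.11, adjusted p = 0.0306), and the sums were 1215 to 1599 CPM in the MSR1 KO and 1578 to 2040 CPM in the MSR1 WT libraries. With libraries left out, Fcgr1 lost its call without MSR1 KO replicate 1 or MSR1 WT replicate 1, Klrb1c kept it only without MSR1 WT replicate 3, and Pdgfra lost it without MSR1 KO replicate 1 or MSR1 WT replicate 1, as Cxcl12 did in all but the fit without MSR1 WT replicate 2. The part of these cells in the class II values was not tested.

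The genes most like the class II genes were sought among 13607 genes with a mean of at least 1 CPM, by Pearson's r of log CPM with the mean of H2-Aa, H2-Ab1, H2-Eb1 and Cd74 over the 6 libraries, as a description. The highest were Arhgap27os2 (0.991), Tug1 (0.988), Trp53 (0.984), Nek9 (0.984) and Gm5786 (0.979). Tug1 ranged only from 103 to 114 CPM, so a high r did not mean a change of similar size. Of the other class II genes, H2-DMb2 had 0.912, Ciita 0.808, H2-DMb1 0.775 and H2-DMa 0.755.

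After centring within each genotype the highest were Snx10 (0.999), Rnase6 (0.995), Zranb2 (0.995), Tmed10 (0.995) and Id2 (0.994), and 107 genes were above 0.95. Rnase6, a ribonuclease gene of myeloid cells, was at 48.6, 71.2 and 41.5 CPM in MSR1 KO replicates 1 to 3 and 11.0, 10.3 and 22.05 CPM in MSR1 WT replicates 1 to 3. It shared the high MSR1 KO replicate 2 and the high MSR1 WT replicate 3 with the chain genes, but its groups did not overlap. Snx10 was at 54.7, 67.85 and 49.9 CPM against 49.9, 51.4 and 81.0 CPM.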

How the data were processed

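RNA was sequenced from 3 MSR1 KO and 3 MSR1 WT macrophage samples, grouped by their labels. The authors deposited raw counts per gene, and beside them a signal column per library (the count divided by a size factor), their own log2 fold change and their p-values; only the raw counts were used. The submitters' processing notes name fastp 0.17.1, HISAT2 2.1.0, DESeq2 1.18.1 and R 3.4.3, whereas the methods name TopHat. The read counter, whether strand was used and the genome build are not given in the sources used here. Positions are those of the deposited table, in which 49909 of 52550 genes have the same start and end as in the GENCODE annotation of GRCm38, 2 of the 10 class II genes among them, so an older annotation of the same build may have been used.

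Counts were filtered with filterByExpr, scaled by TMM and tested with the quasi-likelihood test of edgeR 4.0.16 in R 4.3.3, with Benjamini-Hochberg adjustment over 16402 genes. Intervals used the degrees of freedom of edgeR. Log CPM used a prior count of 2, and a limit from a count of 0 covers counting error alone. Transcript lengths came from GENCODE principal transcripts and promoters from RefSeq. Some genes of the lists are not reported here and were left out of them. The class II genes and all lists were chosen with earlier results of these data known. The class II genes, up to 4 tested genes of each list with the largest change, its most abundant gene and the 5 genes most like the class II genes in each of 2 comparisons were named, and others are marked or given as markers. Sums of markers without their most abundant gene were a later choice, made with the values in view. The tests were tried on simulated counts. Alternatives were DESeq2 1.42.0, other scalings and filters, a replicate block, H2-DMb1 and H2-DMb2 added together, and each library left out.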

Additional observations from a re-analysis of the deposited data

How the results depend on the processing

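The number of class II genes higher in MSR1 KO macrophages at an adjusted p under 0.05 was 0 by edgeR under the other scalings and filters, 1 by DESeq2 (H2-DMa, where 9.57% of all genes were called) and 0 to 1 with each library left out (0.421% to 4.63% of all genes). The number past the study's definition was 1, where 3.59% of all tested genes were higher. It was 2 (H2-DMa and H2-Oa) with no filter beyond a total count above 0, where 692 of 25014 genes were higher. It was also 2 with at least 10 counts in every library, where 562 of 14680 genes were. With each library left out it was 0 to 5, where 540 to 754 genes were. The number without overlap was 3 or 4, but 8 without MSR1 WT replicate 3. The 5 and the 8 both belong to that choice of libraries, for which the shares of all genes are no fair comparison. The log2 fold change of Ciita ranged from -0.067 to 0.88 and that of H2-DMb2 from -0.074 to 0.68 with libraries left out, both negative only without MSR1 KO replicate 2. The cause was not tested. Same-numbered MSR1 KO and MSR1 WT libraries did not deviate together (r of -0.026, 0.019 and -0.005 over genes). Differently numbered ones had r from -0.034 to 0.037. Such values cannot exclude that same-numbered samples shared a culture or batch, and the labels do not say. With a replicate block 0 class II genes were called, the log2 fold change of H2-DMa was 0.78 (adjusted p = 0.168), and the calls over all genes went from 369 higher and 436 lower to 59 and 78. With H2-Oa and H2-Ob at 16 to 55 counts a library, depth limits what can be seen of H2-O.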
